A study of Mus musculus with 6 samples.

Results

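Histone acetyltransferases add acetyl groups to lysines of histone tails, and 10 of their genes were followed here through maps of acetylated lysine 27 of histone H3 (H3K27ac), which is found at promoters and enhancers in use. The genes were Kat2a, Kat2b, Kat5, Kat6a, Kat6b, Kat7, Kat8, Crebbp, Ep300 and Ncoa1, of 21883 protein-coding genes in the RefSeq table of the GRCm38.p6 build. They were chosen by name, and every called peak within a gene or 10 kb either side of it was taken, which gave 227 peaks over the 6 libraries.

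The libraries were made by CUT&RUN, a method that cuts out the DNA around an antibody-bound mark with a tethered nuclease, from hematopoietic stem cells of mouse bone marrow. They fall into Ppp2ca knockout (KO, described in the series text as Ppp2ca deficient) and Ppp2ca wild type (WT), with 3 libraries each and, per the series text, 3 mice per genotype and 100000 cells per preparation. Ppp2ca encodes a catalytic subunit of protein phosphatase 2A. The deleted part of the gene, the way it was deleted, the strain, age and sex of the mice and the way the cells were sorted are unknown here. No label ties a library to an animal, so p-values measure the spread between libraries.

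The enzymes belong to different families. Crebbp and Ep300 encode CBP and its paralogue p300, the coactivators that write most H3K27ac at enhancers. Kat2a and Kat2b encode the related GNAT enzymes GCN5 and PCAF, which act on histone H3 in the SAGA and ATAC complexes. Kat5, Kat6a, Kat6b, Kat7 and Kat8 encode MYST enzymes: TIP60 of the NuA4 complex, MOZ, MORF, HBO1 and MOF, the last of which acetylates histone H4. Kat6a and Kat7 are known as genes that mouse hematopoietic stem cells need for their maintenance. Ncoa1 encodes SRC-1, a nuclear receptor coactivator with weak acetyltransferase activity of its own. A mark on an enzyme's gene is not a measure of the enzyme.

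The lists differed between genotypes as a whole. They held 34016 to 50453 peaks in KO and 21917 to 29945 in WT, and covered 14.5 to 22.7 Mb in KO and 7.25 to 9.60 Mb in WT. Of these peaks, 43.9% to 66.6% in KO and 15.7% to 16.7% in WT passed a q-value of 0.05. Read totals are not in the lists. The background at summits, in fragments, was recovered from fold and p-value. Its commonest value was 0.738, 0.465 and 0.827 in KO replicates 1 to 3 and 0.499, 0.584 and 0.498 in WT replicates 1 to 3. KO replicate 2 had the lowest background of the 6 libraries, and the part of depth and background in the results was not tested. Ppp2ca carried a peak at its low-coordinate end in all 6 libraries, 1566 to 1681 bp wide in KO and 786 to 1232 bp wide in WT, which does not check the genotype because the deleted part is not given. Of 16 stem cell marker genes, 3 to 5 had a gene-end peak in each KO library and 3 to 5 in each WT library. Runx1 and Tal1 had one in all 6 libraries, and Ly6a, Cd34, Mecom, Hlf, Gata2, Slamf1, Hoxa9 and Erg had none in any.

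Across the 10 acetyltransferase genes, more of the mark was called in every KO library than in any WT library. Marked genes are those with a peak reaching into the 1 kb on either side of a gene end. By this measure 7, 8 and 8 of the 10 genes were marked in KO replicates 1 to 3, against 5, 4 and 5 in WT replicates 1 to 3. The means were 7.67 ± 0.577 in KO and 4.67 ± 0.577 in WT (SD, n = 3 each; two-sided exact permutation p = 0.1). That p is the smallest that 3 against 3 libraries allow, so no comparison of this kind could pass 0.05. Counting peaks that pass q 0.05, the numbers were 7, 7 and 8 in KO and 3, 2 and 2 in WT. Of all 21883 protein-coding genes, 9196 ± 516 were marked in KO and 6026 ± 443 in WT (SD, n = 3 each). At q 0.05 these means were 7979 and 2350, so the direction was that of all genes. Of the 9 genes marked anywhere, Kat5, Kat7, Kat8 and Ep300 were marked in all 6 libraries, 4 of 9 against 33.5% of all genes marked anywhere. At Kat5 the peak over the starts reached the gene-end window in KO replicate 1 and WT replicate 1 only. The other libraries counted through peaks at the opposite end of Kat5, in a region that includes the start of Rnaseh2c. At q 0.05 there were 6 of the 10 genes marked in all 3 KO libraries, against 29.4% of all protein-coding genes, and 2 (Kat7 and Ep300) in all 3 WT libraries, against 4.4%.

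Called length was also higher in every KO library. Peaks covered 31163, 20976 and 26169 bp of the 10 spans in KO replicates 1 to 3, against 8085, 11269 and 7751 bp in WT replicates 1 to 3. The ratio of the means was 2.89 (exact permutation p = 0.1). Because the KO lists were longer, the length was also expressed per Mb of each list. It was 1385 ± 53.4 bp per Mb in KO and 1123 ± 52.6 bp per Mb in WT (SD, n = 3 each; exact permutation p = 0.1), a ratio of 1.23. Counting peaks that pass q 0.05, this last ratio turned to 0.910 (exact permutation p = 0.8), while the ratio of called length itself was 5.39.

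**Figure D1:**
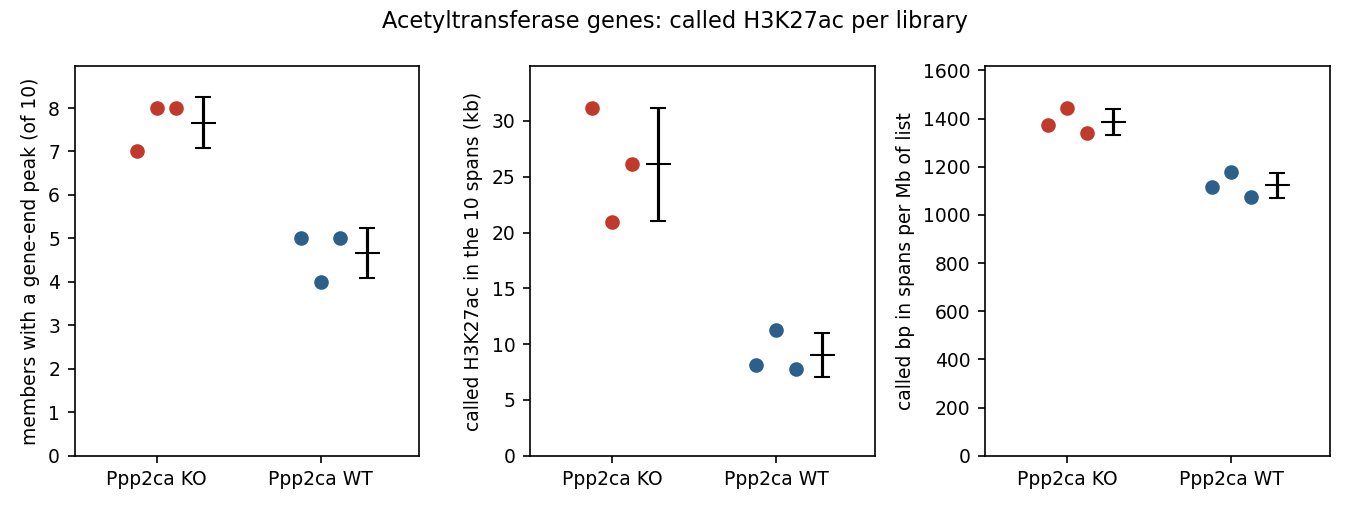
Called H3K27ac at the 10 acetyltransferase genes in each library. Left, genes with a peak within 1 kb of a gene end; centre, kb covered by peaks in the genes and 10 kb either side; right, the same in bp per Mb of the whole list. Points are libraries, the bar with whiskers is the mean ± SD (n = 3), and in each panel the 3 KO libraries lie above the 3 WT libraries, by the smallest margin in the right panel (1339 bp per Mb in the lowest KO against 1178 in the highest WT library).

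Gene by gene, every KO library exceeded every WT library in called length at 9 of the 10 genes, all but Ep300. The same held for 53.7% of the 17006 protein-coding genes with any peak in their span, and 0.476% showed the reverse. The ratio of KO to WT called length had a median of 2.72 over the 10 genes and of 2.57 over the 13333 genes with called length in both genotypes, so the size of the difference at the acetyltransferase genes was near that of the genome at large. Each of the 9 genes had an exact permutation p of 0.1, and 0.184 after Benjamini-Hochberg adjustment over all 17006 genes. Per Mb of the list, 3 of the 10 genes kept every KO library above every WT library, namely Kat2a, Kat6a and Kat8. Over all genes that share was 13.1%, with 5.53% the other way. Part of the KO length counted for Kat8 lay in flanking genes, in regions without a WT peak. Peaks there measured 673, 464 and 649 bp at Bckdk and 562, 408 and 200 bp at Prss36 in KO replicates 1 to 3. Kat8 without its flanks was not compared per Mb.

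The ratio ran widest at Kat6a, with 2552, 1239 and 1907 bp in KO replicates 1 to 3 against 200, 276 and 200 bp in WT replicates 1 to 3, 8.43-fold. Kat2a followed with 2715, 2195 and 2298 bp in KO against 460, 445 and 200 bp in WT, 6.52-fold. Nearly all of this length lay beside Kat2a and not in it. Only the start peaks of KO replicate 1 (205 bp) and KO replicate 3 (200 bp) overlapped the gene itself. The rest lay in the 10 kb on either side, where Dhx58, Hspb9 and Rab5c are. At the low end stood Kat5 with 2362, 1782 and 1601 bp in KO against 787, 1277 and 1218 bp in WT, 1.75-fold. Ep300 was the gene whose libraries overlapped, at 2128, 1469 and 3386 bp in KO and 1344, 1499 and 488 bp in WT (exact permutation p = 0.2, adjusted p = 0.315). The other 6 genes lay between 2.34-fold at Kat7 and 4.72-fold at Ncoa1.

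**Figure D2:**
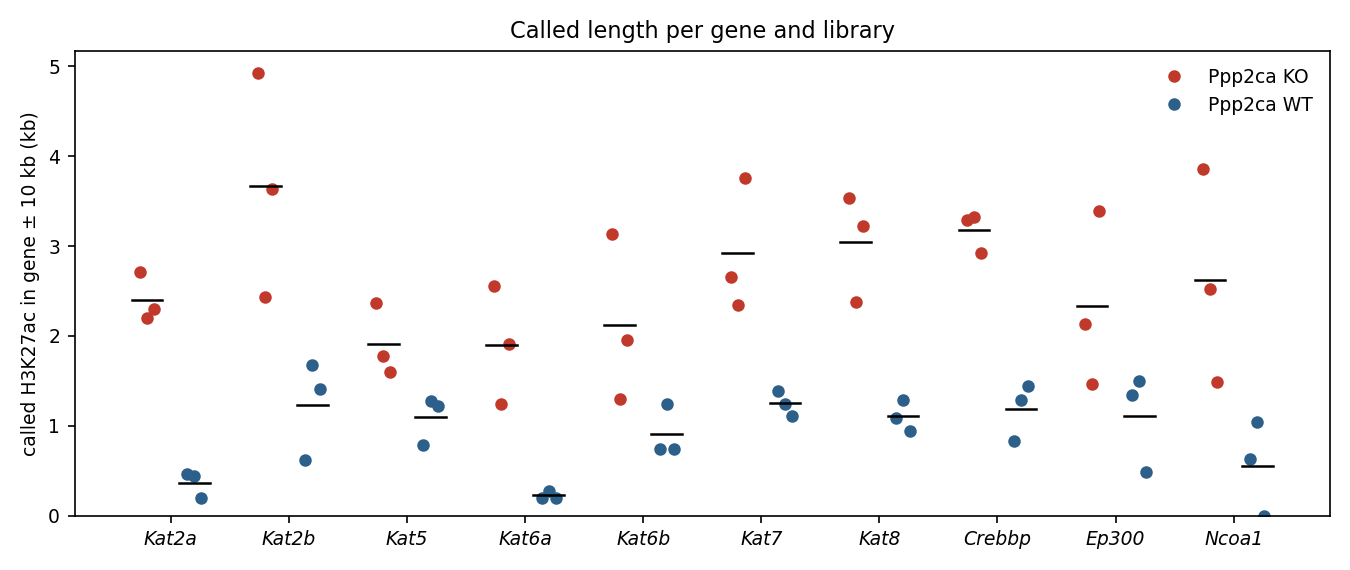
Length covered by called peaks (kb) in each acetyltransferase gene and 10 kb either side, by library. Red points are KO and blue points WT libraries, and the line is the mean of 3. KO lies above WT without overlap at every gene except Ep300, and the WT mean is lowest at Kat6a (225 bp) and Kat2a (368 bp).

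The genes differed in how many libraries had a peak at the transcription start. Starts and strands come from the RefSeq promoter table of the same build, which holds 9 of the 10 genes (not Kat6a). Within 1 kb of a listed start, 7, 7 and 8 of the 9 genes had a peak in KO replicates 1 to 3, and 6, 5 and 5 in WT replicates 1 to 3 (exact permutation p = 0.1). Of all genes with a listed start, 45.7%, 41.5% and 44.1% had one in KO and 27.8%, 31% and 28.3% in WT, in the same order. The starts of Kat5, Kat7, Kat8 and Ep300 were marked in all 6 libraries, 4 of 9 genes, against 18.7% of the 17491 genes with a listed start. The start of Kat6b was marked in all 3 KO and 2 WT libraries, that of Crebbp in all 3 KO and 1 WT, that of Kat2a in 2 KO and 0 WT, that of Ncoa1 in 1 KO and 1 WT, and that of Kat2b in 1 KO and 0 WT. No start was marked in all 3 KO and no WT library, against 4.38% of all genes, and each of the 9 starts was marked in some library, against 50.5% of all genes. Peaks that pass q 0.05 marked the start in all 3 KO libraries at 6 of 9 genes (31.7% of all genes) and in all 3 WT libraries at Kat5, Kat7 and Ep300, 3 of 9 (4.89% of all genes).

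Sequences just upstream of 4 of these genes are shown to set starts that were marked in every library (Kat7, Ep300) beside starts that were marked in at most 2 (Kat2a, Ncoa1). They are RefSeq GRCm38.p6, 5′ to 3′, and end at the last base before the annotated gene. Capitals mark every match, on either strand, to 9 motifs: the CCAAT box, the GC box GGGCGG, the ETS core CCGGAA, part of the cyclic AMP response element TGACGT, the E-box CACGTG, the YY1 core ATGGCGG, the TATA motif TATAAA, the GATA motif AGATAA and the RUNX core TGTGGT.
Kat7 (chr11:95310247-95310496, minus strand): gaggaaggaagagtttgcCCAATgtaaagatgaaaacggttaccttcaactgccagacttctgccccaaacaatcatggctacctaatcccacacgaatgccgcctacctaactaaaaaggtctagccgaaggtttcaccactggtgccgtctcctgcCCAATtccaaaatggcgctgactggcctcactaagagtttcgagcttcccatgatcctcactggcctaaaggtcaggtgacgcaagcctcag
Ep300 (chr15:81585964-81586208, plus strand): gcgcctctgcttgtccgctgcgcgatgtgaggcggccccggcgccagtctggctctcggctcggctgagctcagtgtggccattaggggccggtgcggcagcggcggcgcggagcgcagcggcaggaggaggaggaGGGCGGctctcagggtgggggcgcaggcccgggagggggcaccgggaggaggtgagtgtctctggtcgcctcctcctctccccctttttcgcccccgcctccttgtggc
Kat2a (chr11:100712486-100712717, minus strand): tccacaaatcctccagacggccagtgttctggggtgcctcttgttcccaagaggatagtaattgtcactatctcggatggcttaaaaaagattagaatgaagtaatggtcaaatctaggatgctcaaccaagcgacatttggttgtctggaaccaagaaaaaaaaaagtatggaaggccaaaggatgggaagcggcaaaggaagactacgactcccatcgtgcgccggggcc
Ncoa1 (chr12:4477207-4477432, minus strand): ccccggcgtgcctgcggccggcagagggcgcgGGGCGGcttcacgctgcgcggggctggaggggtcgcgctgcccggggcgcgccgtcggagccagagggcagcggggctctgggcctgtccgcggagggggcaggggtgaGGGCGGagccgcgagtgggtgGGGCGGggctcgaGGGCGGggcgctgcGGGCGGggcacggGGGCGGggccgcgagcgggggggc

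The counts that follow cover windows that reach past the printed letters into each gene. The base composition of the 9 promoters differed widely. Over the 300 bases from 250 before to 50 after the start, GC content was 84.7% at Ncoa1, 82.0% at Crebbp, 78.3% at Kat6b and 72.3% at Ep300, against 53.0% at Kat7 and Kat8, 54.3% at Kat2a, 57.0% at Kat5 and 47.0% at Kat2b. The median over 17491 promoters was 56.3%. The start of Ncoa1, marked in 2 libraries, was thus the richest in GC of the 9, with 49 CpG dinucleotides, and the start of Kat7, marked in all 6, held 14. The GC box occurred in 5 of 9 promoters (46.3% of all promoters), with 7 matches at Ncoa1 and 8 at Kat6b. CCAAT occurred in 4 (39.2% of all), the ETS core in 3, namely Kat5, Kat7 and Kat8 (19.1% of all), and the YY1 core in 3, namely Ep300, Kat8 and Ncoa1 (5.43% of all). The part of the cyclic AMP response element occurred at Kat5 and Kat8 (8.71% of all) and the E-box at Kat5 alone (7.91% of all). TATAAA (13.3% of all), the GATA motif (9.94%) and the RUNX core (15.1%) had no match in these 9 windows. The promoter of Kat2a held none of the 9 motifs. These are matches of letters in a window and not binding sites.

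Of the CBP and p300 pair, Ep300 had a start peak in all 6 libraries, whereas Crebbp had one in all 3 KO libraries and in 1 WT library. At Ep300 (chromosome 15, 81586209 to 81652077, plus strand) the region around the start held peaks in all 6 libraries, over 1928, 1469 and 2238 bp in KO replicates 1 to 3 against 1144, 1282 and 488 bp in WT replicates 1 to 3 (exact permutation p = 0.1). The best peak there had a −log10 q-value of 16.1, 8.51 and 16.2 in KO and of 3.30, 8.74 and 1.77 in WT. Its summit rested on 44, 26 and 46 fragments in KO and on 12, 20 and 10 in WT. It thus ranked within the best 2% of every KO list (percentiles of 0.786, 1.83 and 1.48, where 0 is best) and at percentiles of 3.71, 0.469 and 11.3 of the WT lists. In WT replicates 1 and 3 the domain was broken into separate peaks, and those of WT replicate 3 lay on either side of the start without covering it. Counted from the start, with negative values upstream, the summits lay at -256, -256 and -260 bp in KO replicates 1 to 3 and at -242, -773 and 203 bp in WT replicates 1 to 3.

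At Crebbp (chromosome 16, 4081334 to 4213957, minus strand) the start carried a peak of 722, 709 and 1157 bp in KO replicates 1 to 3 and of 239 bp in WT replicate 3, and none was called in WT replicates 1 and 2. The −log10 q-value was 5.70, 4.46 and 6.28 in KO and 0.328 in WT replicate 3. The summits rested on 13, 10 and 14 fragments in KO, against 4 in WT replicate 3. All 3 KO peaks passed q 0.05 and the WT peak did not. Peak lists give no signal where no peak was called, so the level in WT replicates 1 and 2 is not known. The region with peaks in all 6 libraries in the Crebbp span was not at Crebbp itself: 4077265 to 4078342, at the start of the neighbouring gene Trap1, had 1032 ± 51.0 bp called in KO and 438 ± 124 bp in WT (SD, n = 3 each; exact permutation p = 0.1). Inside Crebbp lay a further 17 regions, of which 16 had a peak in 1 library.

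**Figure D3:**
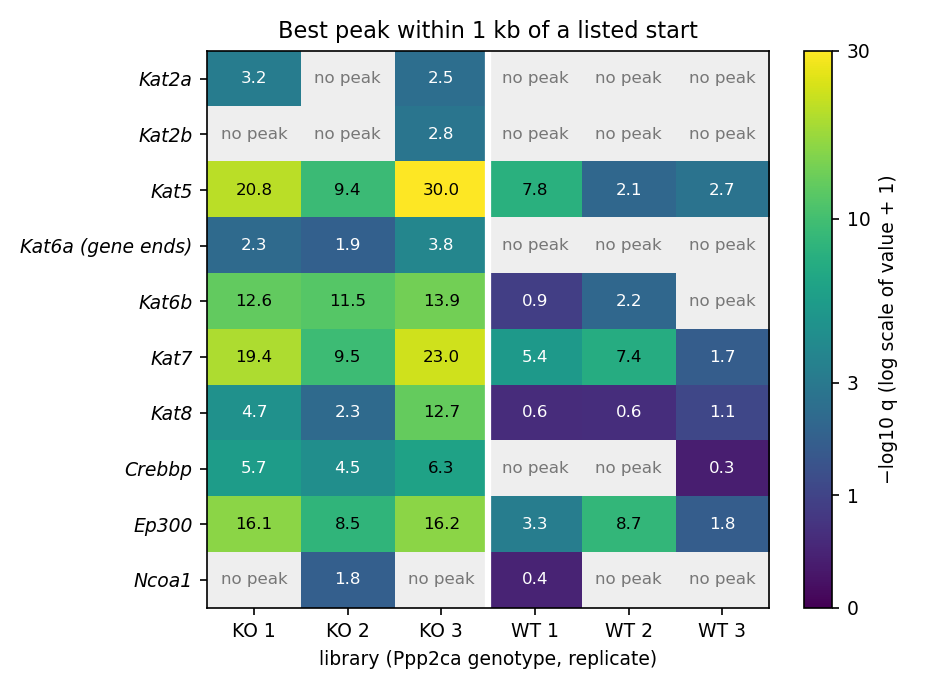
The −log10 q-value of the best called peak within 1 kb of a listed start, for each acetyltransferase gene (rows) and library (columns, KO left of WT); for Kat6a the window is 1 kb around either gene end. Grey cells have no peak, a value of 1.3 equals a q-value of 0.05, and values depend on the depth of each library. Kat5, Kat7, Kat8 and Ep300 have a value in all 6 columns, Kat6a and Crebbp in all 3 KO columns and in 0 and 1 WT columns, and Kat2b and Ncoa1 in 1 and 2 of the 6.

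Neither GNAT gene had a start peak in all libraries. Kat2a (chromosome 11, 100704746 to 100712485, minus strand) had a peak over its start in KO replicate 1 (205 bp, −log10 q-value 3.22, 11 fragments) and KO replicate 3 (200 bp, 2.45, 11 fragments), and in no other library. At the other end of the gene, which adjoins Dhx58, all 3 KO libraries had a peak within 1 kb, and this made Kat2a a gene marked in KO only. Those peaks were 1450, 563 and 553 bp wide in KO replicates 1 to 3, with −log10 q-values of 2.90, 0.775 and 2.63. The merged region there, 100702641 to 100704353, reached further into Dhx58 and held peaks in 2 WT libraries as well, with 1422 ± 86.1 bp called in KO and 222 ± 223 bp in WT (SD, n = 3 each; exact permutation p = 0.1). The WT peaks, of 222 bp in replicate 1 and 445 bp in replicate 2, lay outside the 1 kb. A window of 2 kb around the gene ends removed Kat2a from the genes marked in KO only, as did equal numbers of peaks per list. A pair of further regions marked in all 3 KO and no WT library, from 100721192 to 100721625 and from 100722036 to 100722608, lay inside the adjacent gene Rab5c.

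Kat2b (chromosome 17, 53566774 to 53672721, plus strand) carried its mark inside the gene. Its outermost start had a peak in KO replicate 3 alone (320 bp, −log10 q-value 2.82). A region beginning 1956 bp downstream of that start, 53568927 to 53570871, had peaks in all 6 libraries, over 1819, 899 and 1371 bp in KO replicates 1 to 3 against 200, 434 and 494 bp in WT replicates 1 to 3 (exact permutation p = 0.1). The summits of the best peaks there lay between 3542 and 3595 bp from the start in KO and between 3425 and 3523 bp in WT. A further region, 53586705 to 53588474, beginning 19734 bp from the outermost start and downstream of a listed second start at 53584126, was also marked in all 6 libraries. There 1565, 706 and 1192 bp were called in KO against 423, 744 and 712 bp in WT, and the libraries overlapped (exact permutation p = 0.3). Its best peak passed q 0.05 in all 6 libraries, with a −log10 q-value of 7.57, 4.06 and 5.95 in KO and of 3.65, 1.39 and 1.79 in WT. The remaining 14 regions of Kat2b had peaks in 1 or 2 libraries.

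**Figure D4:**
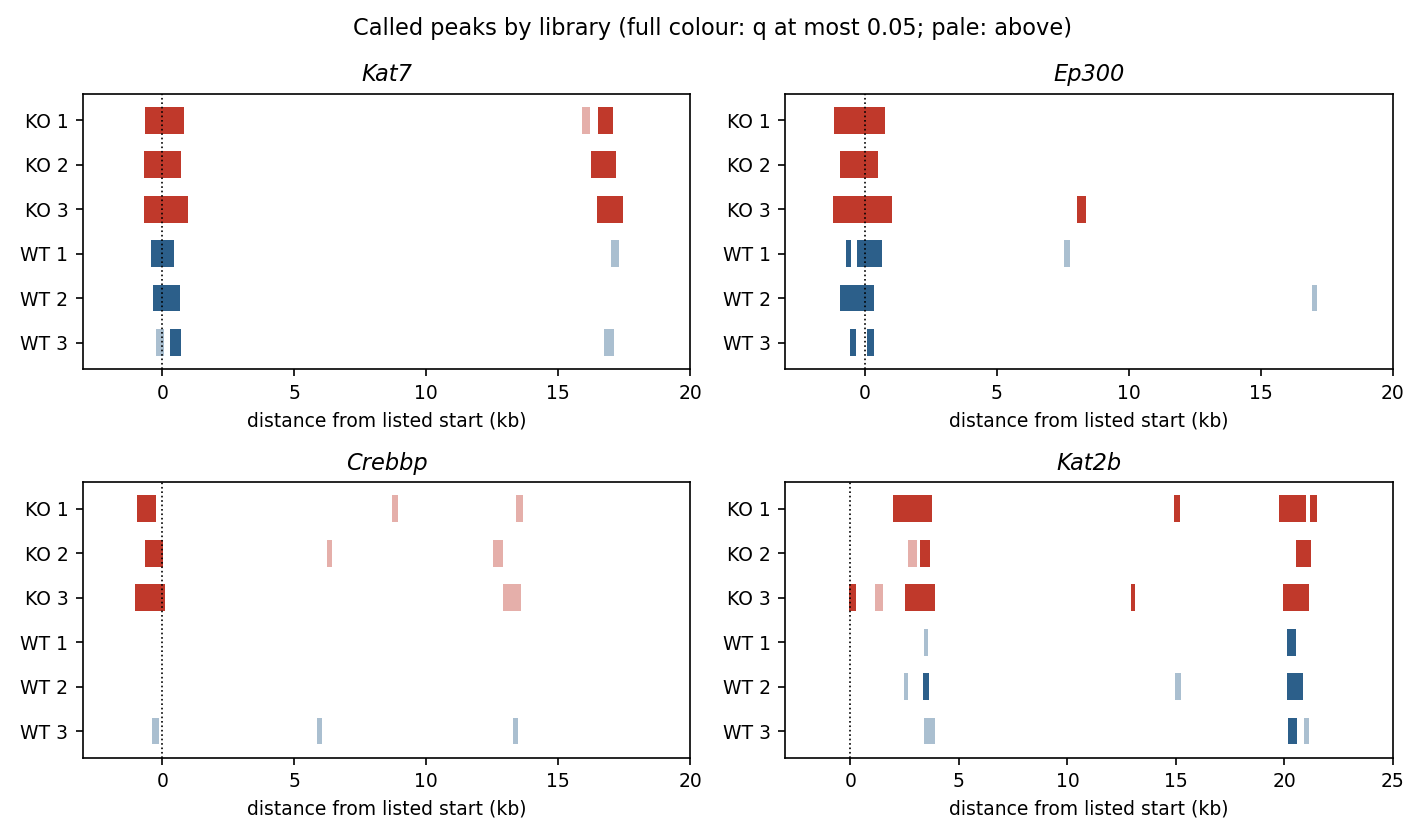
Called peaks of Kat7, Ep300, Crebbp and Kat2b by library, against the distance (kb) from the outermost listed start in the direction of transcription (dotted line). Bars span each peak, red for KO and blue for WT libraries, in full colour where they pass q 0.05 and pale where they do not. Kat7 and Ep300 have peaks at the start in all 6 rows, Crebbp in the 3 KO rows and WT 3, and Kat2b has its shared peaks beginning 1956 and 19734 bp inside the gene.

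Of the MYST genes, Kat5, Kat7 and Kat8 had start peaks in all 6 libraries, Kat6b had its peak just inside the gene, and Kat6a had gene-end peaks in KO only. At Kat5 (chromosome 19, 5603014 to 5611556, minus strand) the peak over the starts measured 1122, 702 and 823 bp in KO replicates 1 to 3 and 587, 792 and 532 bp in WT replicates 1 to 3, so the genotypes overlapped in width (exact permutation p = 0.2). The summit rested on 37, 22 and 48 fragments in KO against 14, 8 and 9 in WT, with −log10 q-values of 20.8, 9.38 and 30.02 in KO and 7.81, 2.13 and 2.71 in WT. These −log10 q-values were the highest of the start peaks in KO replicates 1 and 3 and in WT replicate 1. The folds over background were 8.52, 6.46 and 9.84 in KO and 7.58, 4.64 and 5.05 in WT, as the authors' caller gave them. Folds and q-values depend on depth and were not tested between lists. At the other end of Kat5 a region of 5601686 to 5603194 that includes the start of Rnaseh2c had peaks in all 3 KO and in 2 WT libraries.

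Kat7 (chromosome 11, 95271853 to 95310246, minus strand) had a start peak in all 6 libraries, over 1453, 1393 and 1680 bp in KO and 870, 1047 and 732 bp in WT (exact permutation p = 0.1). Its summit lay between 387 and 413 bp downstream of the start in 5 libraries and 294 bp downstream in WT replicate 1. Called length within 1 kb of the outermost start separated KO from WT completely at Kat7 and Ep300 but not at Kat5 and Kat8. That makes 2 of the 4 genes marked at the start in all libraries, against 65.4% of all such genes. A region inside Kat7, 95292810 to 95294014, had peaks in all 3 KO libraries (587, 946 and 989 bp) and in WT replicates 1 and 3 (315 and 382 bp). It passed q 0.05 in every KO and no WT library.

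At Kat8 (chromosome 7, 127912517 to 127925838, plus strand) the region over the start had 1071, 1048 and 1266 bp called in KO and 1087, 758 and 250 bp in WT (exact permutation p = 0.3). The widths overlapped, yet the best peak had a −log10 q-value of 4.66, 2.27 and 12.7 in KO and of 0.552, 0.559 and 1.08 in WT. Each WT summit there rested on 5 fragments, against 16, 10 and 26 in KO. Inside the gene a region of 127921665 to 127923076 had peaks in all 3 KO libraries and in WT replicates 2 and 3. The span also held a region at the start of Bckdk, 127903954 to 127904724, and one in Prss36, 127935168 to 127935876, both with peaks in all 3 KO and no WT library.

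Kat6b (chromosome 14, 21499216 to 21672478, plus strand) was the member with no gene-end peak in any library. Its peak lay just inside the gene, at 21500288 to 21501406, from 518 to 1636 bp downstream of the outermost listed start. That region was marked in all 6 libraries, over 1092, 655 and 1026 bp in KO and 741, 517 and 540 bp in WT (exact permutation p = 0.2). The summit rested on 24, 19 and 26 fragments in KO and on 5, 7 and 9 in WT, and the −log10 q-value was 12.6, 11.5 and 13.9 in KO and 0.902, 2.16 and 2.20 in WT. A further 17 regions in Kat6b had peaks in at most 2 libraries.

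Kat6a (chromosome 8, 22859442 to 22943259) was marked at its low-coordinate end in all 3 KO libraries and in no WT library. The merged region 22859473 to 22860644 held peaks of 847, 398 and 1168 bp in KO replicates 1 to 3, with −log10 q-values of 1.44, 1.10 and 3.81. An adjacent region, 22858782 to 22859259, held peaks in KO replicates 1 and 2 with −log10 q-values of 2.29 and 1.85. Each KO library thus had a gene-end peak that passed q 0.05, on 7 to 13 fragments at the best summit. The WT libraries each had a single narrow peak elsewhere in the span, of 200, 276 and 200 bp and at a different place in each library, and none of these passed q 0.05. Kat6a stayed marked in KO only with windows of 500 bp and 2 kb, with summits required inside the window, with equal numbers of peaks per list, at q 0.05 and without any single library. With a −log10 q-value of at least 5 no member was.

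Ncoa1 (chromosome 12, 4247362 to 4477206, minus strand), the longest of the genes, was close to unmarked at its start, with a 200 bp peak in KO replicate 2 (−log10 q-value 1.83, 5 fragments) and a 225 bp peak in WT replicate 1 (0.415, 4 fragments) that did not overlap. Inside the gene a region from 4430123 to 4431039 had peaks of 573, 474 and 561 bp in KO and of 285 bp in WT replicate 2 only. Its −log10 q-value was 2.65, 2.40 and 4.79 in KO and 0.923 in that WT library. A second region, 4278774 to 4280185, had 960, 570 and 725 bp called in KO and 557 bp in WT replicate 2. WT replicate 3 had no peak in the whole Ncoa1 span of 249845 bp.

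Genes marked at an end in all 3 KO and no WT library were therefore Kat2a and Kat6a, 2 of the 9 members marked in any library, against 8.1% of the 11084 such genes in the genome (898). None was marked in all 3 WT and no KO library, against 0.018% of genes. With WT replicate 3 left out Crebbp joined them, and at q 0.05 the genes were Kat6a, Kat8 and Crebbp, 3 of 9, against 29.0% of the genes marked at that threshold. With so few members these shares were not tested against the genome.

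The 227 peaks fell into 118 merged regions, 14 at gene ends, 86 in gene bodies and 18 in flanks. Peaks in all 6 libraries made up 8 regions (6.78%, against 5.27% of 104190 regions in the genome). They were the 5 at or near the starts of Kat5, Kat6b, Kat7, Kat8 and Ep300, the pair inside Kat2b and the one at Trap1. Called length separated KO from WT without overlap in 4 of these 8, against 59.4% of such regions in the genome. A further 5 regions (4.24%, against 2.71% in the genome) had peaks in all 3 KO and no WT library, of which 1 was at an end of a member, Kat6a, and 4 lay in flanking genes. No region had peaks in all 3 WT and no KO library, against 0.0298% of regions in the genome. Most regions, 86 (72.9%, against 73.5% in the genome), were seen in 1 library, 66 in KO and 20 in WT. Of the 86 peaks in them, 46 had the minimum width of 200 bp and 17 passed q 0.05, and 71 lay in gene bodies.

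**Figure D5:**
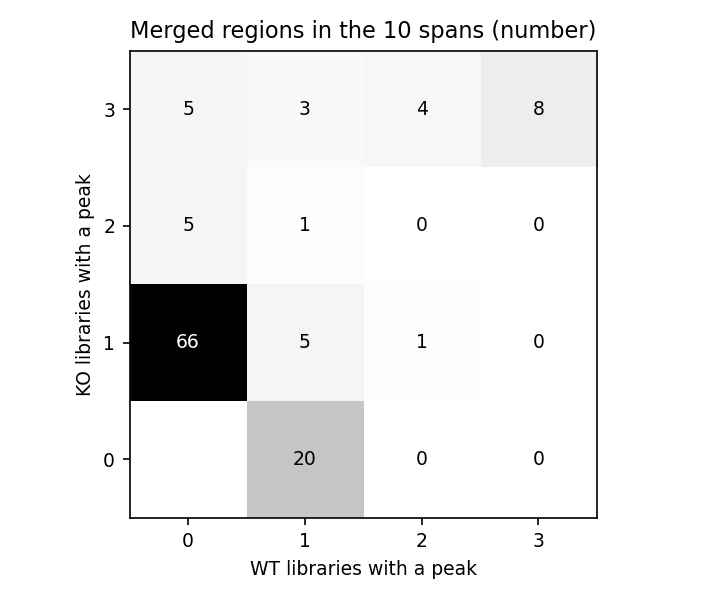
Number of merged regions in the 10 spans by how many KO (vertical) and WT (horizontal) libraries had a peak there. The largest cells are 66 regions with a peak in 1 KO library and 20 with a peak in 1 WT library, 8 regions had peaks in all 6, and the cells for 2 or 3 WT and no KO libraries hold 0.

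Within the 10 spans KO libraries shared more called sequence with each other than WT libraries did. The Jaccard index, the shared over the joint called length, averaged 0.387 among KO pairs (0.344 to 0.422), 0.232 among WT pairs (0.213 to 0.247) and 0.200 between genotypes (0.168 to 0.253). The index was not adjusted for the greater called length in KO.

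The protein partners of these enzymes were read in the same way. Of 56 subunit genes of acetyltransferase complexes, 50.7 ± 2.31 were marked at an end in KO and 38.3 ± 1.53 in WT (SD, n = 3 each; exact permutation p = 0.1). Marked in all 3 KO and no WT library were Meaf6, a subunit shared by the MOZ, HBO1 and NuA4 complexes, Sgf29, a SAGA and ATAC subunit that reads methylated histone H3, and Jade3, a scaffold of the HBO1 complex. That is 3 of 55 marked genes (5.45%), against 8.1% of all genes marked anywhere, and the same 8.1% stands beside the counts of the lists that follow. Of 15 other acetyltransferase and coactivator genes 12 ± 1 were marked in KO and 8 ± 2 in WT, with Elp3, the catalytic subunit of Elongator, marked in KO only (1 of 13). Of 11 genes of acetyl-CoA supply, all 11 were marked in each KO library and 8.33 ± 0.577 in WT, with Dlat, a subunit of pyruvate dehydrogenase, marked in KO only (1 of 11). Of 15 genes of acetyl-lysine readers 10.3 ± 1.15 were marked in KO and 7.33 ± 0.577 in WT, none in KO only, and Brd7 and Brd9, bromodomain subunits of SWI/SNF complexes, were marked in all 6 libraries (SD, n = 3 each, throughout).

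Genes of the deacetylases, which remove the acetyl groups, were also marked in greater number in KO libraries. Of 18 deacetylase genes 14.3 ± 0.577 were marked in KO and 6.33 ± 2.52 in WT (SD, n = 3 each; exact permutation p = 0.1), and 4 of 16 were marked in KO only, namely Hdac8, Sirt3, Hdac7 and Sirt1, against 8.1% of all genes marked anywhere. Over all protein-coding genes 9196 ± 516 were marked in KO and 6026 ± 443 in WT (SD, n = 3 each; exact permutation p = 0.1), so these lists shared the direction of the whole lists. The median KO to WT ratio of called length was 2.72 for the acetyltransferase genes, 2.52 for the complex subunits, 3.20 for the deacetylases, 3.39 for acetyl-CoA supply, 2.62 for the readers and 2.59 for the other acetyltransferases. These medians leave out genes with no WT peak in the span. By that rule the median over all protein-coding genes was 2.36, and over genes with called length in both genotypes it was 2.57. Differences between lists were not tested.

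Markers of other blood and marrow cells were read from the same windows. Erythroid markers were marked at 3 to 5 of 8 genes in KO and 2 to 3 in WT, with Klf1 in all 6 libraries. Myeloid markers were marked at 4 to 7 of 10 in KO and 3 to 5 in WT, with Spi1 and Cebpe in all 6. B cell markers were marked at 0 to 3 of 7 in KO and 0 to 2 in WT, and T and NK cell markers at 1 to 3 of 8 in KO and 1 in each WT library, with Cd3d in all 6. No library had a peak within 1 kb of a listed start of Cd3d. Megakaryocyte markers were marked at 2 to 3 of 6 in KO and 2 to 4 in WT, with Itga2b and Gp1ba in all 6. Endothelial and stromal markers were marked at 2 to 3 of 7 in KO and 1 to 2 in WT, with Pecam1 in all 6 and Kdr in KO only. No library had a peak within 1 kb of a listed start of Kdr. In the KO library where Kdr ranked worst, its peak stood at percentile 97.2 of the list. The ranges of KO and WT overlapped or met in all of these lists and in the stem cell list. Their part in the acetyltransferase results was not tested.

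Outside the list, the 3 genes whose gene-end called length over the 6 libraries ran most like the sum of the 10 members were Gmpr2, Prpf39 and Mrpl16. Each profile was scaled to its maximum, and the Euclidean distances over the 6 libraries were 0.0654, 0.0758 and 0.0918 among 11075 genes compared. Gmpr2 had 1147, 895 and 1234 bp in KO replicates 1 to 3 and 546, 511 and 335 bp in WT replicates 1 to 3, while the 10 members together had 8176, 6501 and 8845 bp in KO and 3351, 3572 and 2395 bp in WT.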

How the data were processed

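H3K27ac CUT&RUN peak lists of 3 Ppp2ca KO and 3 Ppp2ca WT libraries were used. Per the submitters' processing notes, the tools named were ChIPseeker, HOMER, deepTools, MACS2, BWA and Trimmomatic on GRCm38/mm10; their versions and settings, and whether a control library was used, are unknown here. Peaks were listed per library. Each peak has a deposited ratio, its fold over the local background, with a deposited −log10 p-value and a deposited −log10 q-value. The deposited score, in at least 99.89% of peaks, was the −log10 p-value times 10 without its decimals. The smallest −log10 p-value was 2.005, and a median summit rests on 5 fragments in WT and 6 to 9 in KO.

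Fold equals (fragments + 1)/(background + 1) and p a Poisson tail, so whole fragments were solved for; a single solution within 0.002 was found for at least 98.9% of peaks with a −log10 p-value under 15. Ties in rank shared the mean rank. Overlapping peaks (1 bp or more) were merged into regions. Genes were placed by RefSeq GRCm38.p6, and 187 of 187 list entries matched by symbol. Starts were read from the promoter table after the data had been seen, since the gene table has no strand. Genotypes were compared by two-sided exact permutation over 20 assignments (scipy 1.17.1). Members and lists were chosen with earlier results of these data known. Named were all members and the 3 genes of most similar profile. Of each other list, genes marked in KO or WT only were named (at most 4), otherwise up to 2 marked in all 6 libraries with the best rank. Pecam1 was named beside Kdr outside this rule. Alternatives were stricter q-values, equal numbers of peaks per list, other windows and overlaps, a block on the replicate number and dropping 1 library at a time. Regions prone to artefact were not filtered. The overlap procedure was tested on simulated data.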

Additional observations from a re-analysis of the deposited data

How the results depend on the processing

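The KO to WT ratio stayed above 1 for the number of marked members (1.30 to 3.14), the peaks in their spans (1.31 to 6.25) and the called length (2.33 to 7.74) under every q threshold, equal list lengths, summit rule, window and left-out library run. The ratio of called length per Mb of the list fell below 1 at q 0.05 (0.910, exact permutation p = 0.8) and with a −log10 q-value of at least 5 (0.484, exact permutation p = 0.4); the cause was not tested. Members marked in KO only numbered 0 with a −log10 q-value of at least 5 and 1 with equal numbers of peaks or a 2 kb window, instead of 2. Members with every KO above every WT library in called length numbered 3 per Mb of the list, instead of 9. With a −log10 q-value of at least 5, members marked in all libraries of a genotype numbered 2 in KO and 0 in WT, instead of 6 and 2 at a q-value of 0.05. Peaks passing q 0.05 left 44 merged regions, 4 of them in all 6 libraries, instead of 118 and 8.

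Leaving out each library gave ratios of 1.53 to 1.71 for marked members, 1.96 to 2.35 for peaks, 2.61 to 3.30 for called length and 1.21 to 1.27 per Mb. Same-numbered libraries did not deviate together (correlations of -0.0155, 0.00766 and -0.00364 over 17006 genes), so the numbers are not taken as pairs; the replicate block gave an exact p of 0.25, the smallest 3 pairs allow, for the ratios of 1.64, 2.15, 2.89 and 1.23 and for the start peaks (1.38); the last of these ran from 1.31 (p = 0.2, exact permutation, without KO replicate 3) to 1.47. With 3 libraries per genotype and WT summits of typically 5 fragments, a site without a called peak is not shown to lack the mark.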
